A study of Rattus norvegicus with 6 samples.

Results

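The 10 genes described here encode the main heat shock chaperones and the transcription factor that drives them: Hsf1, Hspa1a, Hspa1b, Hspa8, Hsph1, Dnajb1, Hsp90aa1, Hsp90ab1, Hspb1 and Hspd1. They were chosen by name from the 18420 genes of the deposited table. The symbols of 9 of them were in the table, and Hspa1b was found by its identifier, 108348108, which the table lists without that symbol. RNA-seq, which counts the RNA fragments of each gene, had been run on rat chondrocytes at the third passage, taken from the joints of Sprague-Dawley rats. The 3 libraries of the TNF-α group came from cells given 10 ng/mL TNF-α, an inflammatory cytokine used here as a cellular model of osteoarthritis, for 6 h. The 3 libraries of the TNF-α+NFL group came from cells given the same TNF-α for 6 h and then NFL, a freeze-thaw lysate of the stromal cells of fat (Nanofat), for 24 h. The time label is 6 h for the first group and 30 h for the second, so the time of harvest and NFL cannot be told apart. Untreated cells (the NC group) were not analysed here. The comparison asked whether NFL altered gene expression in TNF-α-treated chondrocytes.

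Chaperones bind unfolded proteins and help them fold, and many are made in larger amounts when a cell is heated or its proteins are damaged. In resting cells the transcription factor HSF1 is held inactive by chaperones. Under stress it forms trimers, enters the nucleus and binds heat shock elements, short arrays of the inverted units GAA and TTC, in the promoters of chaperone genes. HSP70 and HSP90 proteins are abundant even without stress, while the inducible forms of HSP70 report on the stress response, and in cartilage chaperones also serve the folding of large amounts of secreted matrix protein.

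Every direction below is that of the deposited labels. The study's own gene list, if its headings under the treated comparison stand for the TNF-α+NFL group, orders the groups the other way, so the labels alone set which group is called higher. The 6 libraries held between 19344893 and 19725135 estimated counts each. The study calls the 3 libraries of a group biological replicates without saying whether they came from separate animals, so the p-values measure the spread between these libraries. Of 12 chondrocyte markers, 10 passed the filter on low counts and Matn1 lay at or under 3 counts in every library. Levels per transcript length (TPM, averaged over 6 libraries) were 8.47 for Col2a1, 5.33 for Acan, 4.54 for Sox9 and 459.95 for Col11a1, a cartilage collagen, beside 1265 for Col1a1, a collagen of fibroblasts, 3306 for Acta2, an actin of contractile cells, and 1100 for Prg4, lubricin of the joint surface. For markers of adipocytes, macrophages, endothelium and blood, summed counts scaled to a common library size (CPM) were at most 28.2 in any library. Those sums overlapped between the groups. Of these markers Adgre1, Cd163, Mrc1, Cdh5 and Hbb were not among the deposited genes. In mean TPM, the macrophage marker Cd68 had 38.7 and the adipocyte marker Fabp4 had 32.1, above Col2a1, Acan and Sox9. The macrophage marker Csf1r had 40 counts in TNF-α replicate 1 and at most 7 in any other library. None of the 10 chondrocyte markers tested was called by edgeR, against 0.611% of all genes tested, and 2 had an unadjusted p under 0.05, against 11.1%. Log2 fold changes were above 0 for 7 of them and below 0 for 3, from 0.41 for Col9a1 to -0.14 for Prg4. The groups were apart for 3 of the 10, against 16.8% of all genes tested. These were Col11a1 (0.22, edgeR adjusted p = 0.052), Col2a1 (0.23, edgeR adjusted p = 0.22) and Col9a1, each higher in the TNF-α+NFL group. In bulk RNA, fewer cells of a type and less RNA per cell cannot be told apart.

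No heat shock gene of the 10 differed between the groups at an adjusted p under 0.05 by edgeR's quasi-likelihood test. Of the 13250 genes tested, 0.611% did, with 0.408% called higher after NFL and 0.204% called lower. The count was also 0 by limma-voom and by the DESeq2 Wald test, which gave no adjusted p for Hspa1a and Hspa1b. All 10 genes passed the filter on low counts. At an unadjusted p under 0.05, 2 of them differed, Hspb1 and Hsp90aa1, both higher in the TNF-α+NFL group, against 11.1% of all genes tested. The CPM of the groups did not overlap for 3 of the 10, those genes and Hsp90ab1, against 16.8% of all genes tested. Of the 10 log2 fold changes, 6 were above 0 and 4 below, with a median of 0.012, beside a median of -0.0035 over all genes tested. For the 9 genes other than Hspa1a, the 95% confidence intervals of the change lay between -9.95% (Hspa8) and 18.3% (Hspb1), so larger changes in either direction were outside the intervals of these libraries. The 10 genes together took 3147 ± 65.6 CPM in the TNF-α group and 3113 ± 50.3 CPM in the TNF-α+NFL group (SD, n = 3 each), a difference of -0.016 on the log2 scale (exact permutation test, two-sided, p = 0.6). With 3 libraries against 3, an exact two-sided permutation p cannot go below 0.10.

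**Figure D1:**
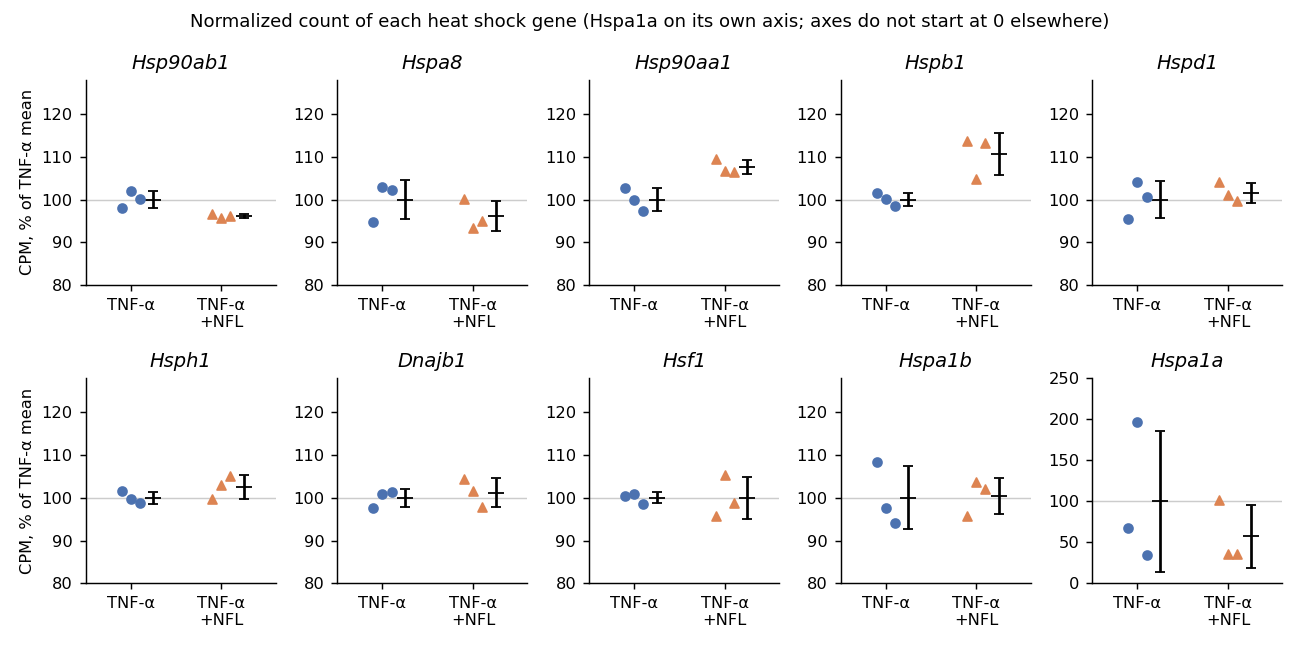
Normalized count (CPM) of each heat shock gene in each library, as a percent of the mean of the TNF-α group, with blue circles for the TNF-α libraries, orange triangles for the TNF-α+NFL libraries and black bars for the mean ± SD (n = 3). The vertical axis does not start at 0 except for Hspa1a, and the groups are apart for Hsp90aa1, Hspb1 and Hsp90ab1.

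Levels per transcript length spanned 3 orders of magnitude. Averaged over the 6 libraries, the TPM was 1003 for Hsp90ab1 and 882 for Hspa8, the constitutive HSP90 and HSP70 of the cytosol, which ranked 161 and 184 of 18420 genes. With the row that completes its counts, described below, Hspa8 had a mean TPM of 1574 (1536 to 1609), 1.78 times its own, against 1007 (996 to 1027) for Hsp90ab1 with its own completing row, so the order of these genes turned. Hsp90aa1, the inducible HSP90, followed with a mean TPM of 350.3. The small heat shock protein gene Hspb1 and the mitochondrial chaperonin gene Hspd1 came next, with mean TPM of 199 and 179, and their ranges over the libraries overlapped, the only neighbours in the order for which they did. The mean TPM was 60.7 for Hsph1, 48.2 for Dnajb1 and 27.6 for Hsf1. The inducible HSP70 genes were lowest, at a mean TPM of 18.8 for Hspa1b and 0.707 for Hspa1a, and Hspa1a lay 26.6 times below Hspa1b. The coefficient of variation of TPM over the libraries was 82.3% for Hspa1a, 1.29% for Hsp90ab1 and 2.87% for Hspa8.

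**Figure D2:**
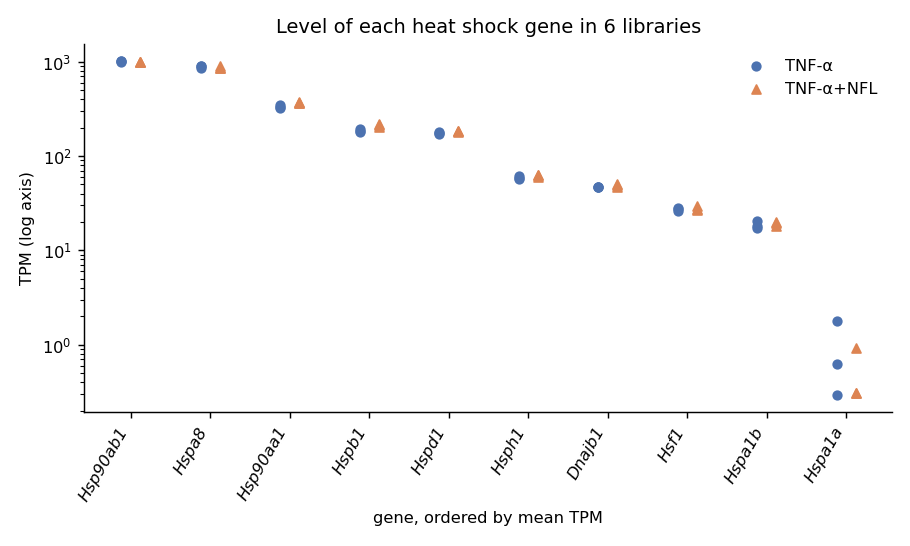
Level of each heat shock gene in TPM on a log axis, ordered by its mean over 6 libraries, with blue circles for TNF-α and orange triangles for TNF-α+NFL libraries. The levels run from 1003 TPM for Hsp90ab1 to 0.707 TPM for Hspa1a, and libraries of both groups lie close together for every gene except Hspa1a.

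Promoter sequences are shown because HSF1 acts on these genes through heat shock elements. They were taken from RefSeq for the GRCr8 build, as 250 bases before to 50 after each gene's start, whereas the submitters' processing used Rnor_6.0, so these coordinates belong to the sequences alone. A sequence was on hand for 7 of the 10 genes. The search was for a 3-unit element (GAANNTTCNNGAA or its reverse complement TTCNNGAANNTTC), and for a 2-unit element (GAANNTTC or TTCNNGAA, each its own reverse complement), which the 3-unit element contains. The 3-unit element was in 0.798% of the 33469 promoters of the table and in 3 of the 7, Hspa8, Hsph1 and Hspd1. The 2-unit element was in 15.9% of all promoters and in 5 of the 7, Hspb1 and Dnajb1 being the other 2. Hspa1a and Hsp90ab1 held neither. Only exact matches were counted, so an element with an altered unit would be missed. The stretches that hold the 3-unit elements before the start sites are given 5′ to 3′ on the gene's strand, with the elements in capitals, and each distance is that of the first capital letter from the gene's start. The first Hspa8 stretch lies at chr8:50080286-50080328 and the second at chr8:50080444-50080486 on the plus strand, Hsph1 at chr12:10427317-10427359 on the plus strand, Hspd1 at chr9:64084247-64084287 on the minus strand and Hspe1, which encodes the co-chaperonin of HSPD1, at chr9:64084247-64084294 on the plus strand.
Hspa8, element from 213 bases before the start: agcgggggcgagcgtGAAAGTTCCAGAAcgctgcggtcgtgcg
Hspa8, element from 55 bases before the start: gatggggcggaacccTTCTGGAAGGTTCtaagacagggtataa
Hsph1, element from 36 bases before the start: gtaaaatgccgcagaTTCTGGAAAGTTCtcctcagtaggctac
Hspd1, element from 242 bases before the start: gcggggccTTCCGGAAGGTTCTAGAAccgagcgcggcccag
Hspe1, element from 65 bases before the start: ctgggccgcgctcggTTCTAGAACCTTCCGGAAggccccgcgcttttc
The Hspd1 and Hspe1 elements are the same stretch of the genome read from opposite strands, an array of 4 units between genes that are transcribed away from each other. A match is a description of the letters and not evidence of binding.

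Hsf1, the stress-activated transcription factor, had 30.4, 30.5 and 29.8 CPM in the TNF-α libraries and 29.0, 31.8 and 29.9 CPM in the TNF-α+NFL libraries. The TNF-α+NFL libraries lay on both sides of the others, and the log2 fold change was -0.00025 (SE 0.056, 95% interval -0.12 to 0.12, edgeR adjusted p = 0.999). Of 5 other heat shock factor genes and their binding proteins tested, none was called by edgeR, against 0.611% of all genes tested. The median log2 fold change of the 5 was 0.027. Hsf2, a factor of development and stress, had a log2 fold change of 0.027 (edgeR adjusted p = 0.92). Hsbp1, which encodes a small protein that binds HSF1 trimers, had -0.056 (edgeR adjusted p = 0.76). The related Hsbp1l1 had a log2 fold change of 0.55 with an SE of 0.37.

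Hspa1a and Hspa1b encode the stress-inducible HSP70 and are near-identical neighbours. Hspa1b had 22.1, 19.9 and 19.3 CPM in the TNF-α libraries and 19.6, 21.2 and 20.9 CPM in the TNF-α+NFL libraries. The groups overlapped, and the log2 fold change was 0.0073 (SE 0.070, 95% interval -0.14 to 0.16, edgeR adjusted p = 0.98). Hspa1a had estimated counts of 15.0, 45.0 and 7.5 in the TNF-α libraries and of 22.5, 7.5 and 7.5 in the TNF-α+NFL libraries. These are 2, 6 and 1, and 3, 1 and 1, times the lowest value, so each count of this gene takes a few steps of a fixed size. Its log2 fold change was -0.80 with an SE of 0.79 (95% interval -2.79 to 1.2, edgeR adjusted p = 0.80), and without TNF-α replicate 2 the value was 0.17. A difference in Hspa1a by itself could not be resolved at these counts. Summed, Hspa1a and Hspa1b had 22.9, 22.2 and 19.7 CPM in the TNF-α libraries and 20.7, 21.6 and 21.3 CPM in the TNF-α+NFL libraries. The sums overlapped and differed by -0.023 on the log2 scale (exact permutation test, two-sided, p = 0.8), with Hspa1a taking from 1.78 to 10.3% of them.

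Hspa8, the constitutive HSP70, had 908, 988 and 981 CPM in the TNF-α libraries and 959.5, 895 and 910.1 CPM in the TNF-α+NFL libraries. TNF-α replicate 1 lay within the range of the TNF-α+NFL libraries, so the groups overlapped, and the log2 fold change was -0.057 (SE 0.043, 95% interval -0.15 to 0.036, edgeR adjusted p = 0.69). The inducible pair, Hspa1a plus Hspa1b, stood to Hspa8 in a TPM ratio of 0.0219 ± 0.00254 in the TNF-α group and 0.0224 ± 0.00133 in the TNF-α+NFL group (SD, n = 3 each; exact permutation test, two-sided, p = 0.8). With the completing rows in both sums, the ratio was 0.0130 ± 0.00151 in the TNF-α group and 0.0131 ± 0.000675 in the TNF-α+NFL group (SD, n = 3 each; exact permutation test, two-sided, p = 0.9).

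Hsph1, an HSP110 that exchanges nucleotide on HSP70, had 106, 104 and 104 CPM in the TNF-α libraries and 104, 108 and 110.2 CPM in the TNF-α+NFL libraries. Those ranges overlapped, with a log2 fold change of 0.036 (SE 0.040, edgeR adjusted p = 0.82). Dnajb1, the inducible J-protein that starts the ATPase cycle of HSP70, had 52.1, 53.8 and 54.0 CPM in the TNF-α libraries and 55.7, 54.1 and 52.1 CPM in the TNF-α+NFL libraries, a log2 fold change of 0.017 (SE 0.046, edgeR adjusted p = 0.94). The genes whose log2 CPM followed that of Dnajb1 most closely over the 6 libraries were Wdr34, Rtf1, Csf3r, Trmt10b and Supt20h, with Pearson's r from 0.972 to 0.981, and 67 genes had an r over 0.9. Chaperone genes, Dnajb1 included, were 110 of the 13250 genes tested, and none was among the 50 nearest. A share this small leaves few or none to be found among 50, so nothing follows from that count. Among the other members, r with Dnajb1 ran from -0.71 for Hspa1b to 0.81 for Hspd1. These are descriptions over 6 libraries that share their depth and scaling.

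The HSP90 genes of the cytosol, which encode the chaperones of kinases and steroid receptors, lay on opposite sides of 0. Hsp90aa1, the inducible form, had 492, 478 and 466 CPM in the TNF-α libraries and 524, 511 and 509 CPM in the TNF-α+NFL libraries. Each TNF-α+NFL library was above each TNF-α library, and the log2 fold change was 0.10 (SE 0.037, 95% interval 0.025 to 0.18), with an unadjusted edgeR p of 0.014 and an adjusted p of 0.29. Hsp90ab1, the constitutive form, had 1191, 1239 and 1218 CPM in the TNF-α libraries and 1173, 1162 and 1169.5 CPM in the TNF-α+NFL libraries. Each TNF-α+NFL library was below each TNF-α library in CPM, while in TPM the groups overlapped. With its completing row, Hsp90ab1-ps17, the TPM was 1019, 1027 and 1000.76 in the TNF-α libraries and 1000.54, 999.5 and 996 in the TNF-α+NFL libraries, and the groups were apart. Its log2 fold change was -0.058 (SE 0.035, 95% interval -0.13 to 0.018, edgeR adjusted p = 0.60). The TPM ratio of Hsp90aa1 to Hsp90ab1 was 0.346, 0.323 and 0.320 in the TNF-α libraries and 0.374, 0.368 and 0.365 in the TNF-α+NFL libraries. The ratio was higher in each TNF-α+NFL library, 1.12-fold on average or 0.16 on the log2 scale (exact permutation test, two-sided, p = 0.10, the smallest that 3 against 3 allows). With the rows that complete these genes' counts added, as described next, the ratio was 1.07-fold higher, or 0.10 on the log2 scale, and the groups were still apart (exact permutation test, two-sided, p = 0.10).

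Fractional counts in 4 member families could be traced to other rows of the table. The estimated counts of Hspa8, Hsp90aa1, Hsp90ab1, Hspa1a and Hspa1b were fractional, while those of Hsf1, Hspb1, Hsph1, Dnajb1 and Hspd1 were whole in every library. Hspa1a lay within 0.025 counts of a whole number in 2 libraries. Among 4007 rows with fractional values in at least 5 libraries, a single row brought Hspa8 to a whole number in 6 of 6 libraries, within 0.025 counts. That row was Hspa8-ps25, a pseudogene in RefSeq. The only such row for Hsp90ab1 was the pseudogene Hsp90ab1-ps17, and the only such row for the sum of Hspa1a and Hspa1b was Hspa1l, a related HSP70 gene of the testis. For Hsp90aa1 it was LOC103692716, which the RefSeq table used here does not name and which was found only through this search, after the values had been seen.

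Hspa8-ps25 took a large part of the counts it shared with Hspa8, though fewer than Hspa8 in each library. It had 739, 719 and 788 CPM in the TNF-α libraries and 744, 717 and 748 CPM in the TNF-α+NFL libraries, from 42.1 to 45.1% of the sum with Hspa8. The sums were 1647, 1706 and 1769.9 CPM in the TNF-α libraries and 1703, 1612 and 1658 CPM in the TNF-α+NFL libraries. The summed groups overlapped, and the log2 fold change of the summed row was -0.043 (SE 0.039, edgeR adjusted p = 0.76). The level of Hspa8 and its place above or below Hsp90ab1 therefore depended on that split, while the comparison between the groups changed little.

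The share assigned to LOC103692716 differed between libraries and bears on Hsp90aa1. It had estimated counts of 423, 1374 and 1374 in the TNF-α libraries and of 581, 581 and 846 in the TNF-α+NFL libraries. These are 8, 26 and 26, and 11, 11 and 16, times a step of 52.9 counts. The row held 4.31, 12.7 and 13.0% of the sum with Hsp90aa1 in the TNF-α libraries and 5.37, 5.51 and 7.80% in the TNF-α+NFL libraries. The summed counts were 9815, 10826 and 10586 in the TNF-α libraries and 10837, 10558 and 10847 in the TNF-α+NFL libraries. In CPM the sums were 532 ± 17.3 in the TNF-α group and 549 ± 7.01 in the TNF-α+NFL group (SD, n = 3 each), and the groups now overlapped. The log2 fold change of the summed row was 0.044 (SE 0.038), with an unadjusted edgeR p of 0.26 and an adjusted p of 0.74. On the TPM scale the sums, 370.1 ± 6.87 and 391 ± 2.89 in the same order, still did not overlap (exact permutation test, two-sided, p = 0.10). The separation of Hsp90aa1 in CPM thus depended on how the estimate split counts between 2 rows.

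**Figure D3:**
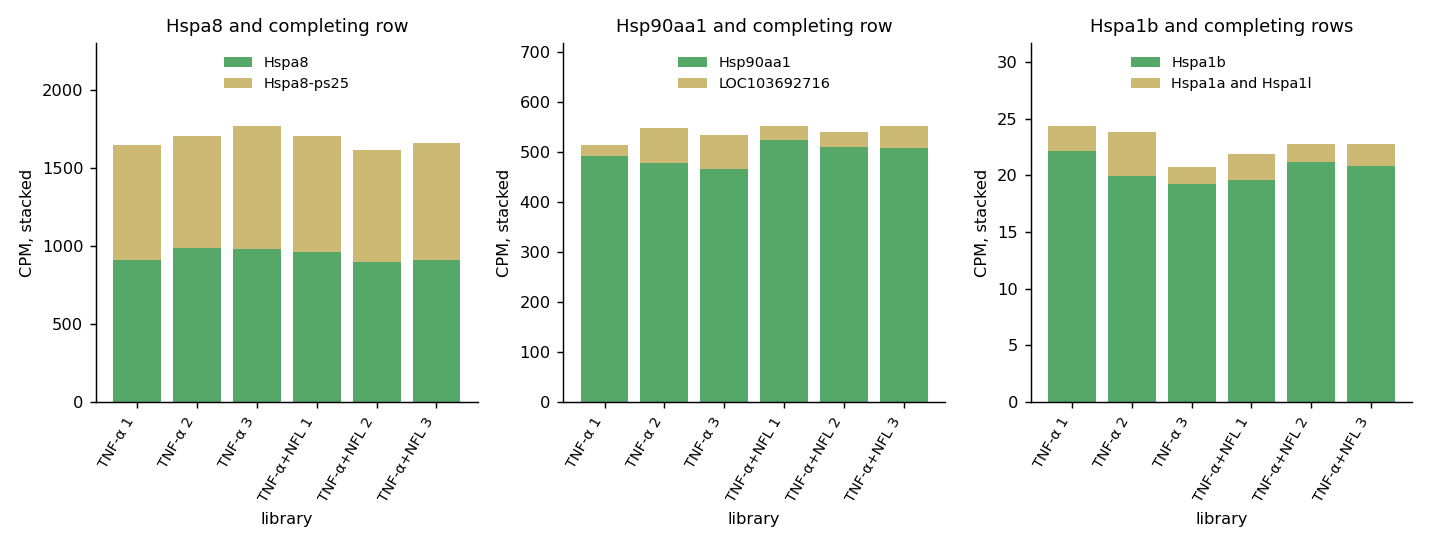
Stacked CPM of Hspa8, Hsp90aa1 and Hspa1b (green) and of the rows that complete them to whole counts (yellow) in each library. The pseudogene takes from 42.1 to 45.1% of the Hspa8 sum in each library, while the share of LOC103692716 in the Hsp90aa1 sum runs from 4.31% in TNF-α replicate 1 to 13.0% in TNF-α replicate 3.

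Hspb1 encodes HSP27, a small heat shock protein that holds unfolded proteins and binds actin filaments, and its fold change was the farthest from 0 of the 10 genes, Hspa1a excepted. Its CPM was 84.3, 83.2 and 81.7 in the TNF-α libraries and 94.4, 87.1 and 94.0 in the TNF-α+NFL libraries, means of 83.1 ± 1.29 and 91.8 ± 4.08 (SD, n = 3 each). Each TNF-α+NFL library was above each TNF-α library, in CPM and in TPM, and TNF-α+NFL replicate 2 was the nearest to the other group. The log2 fold change was 0.14 (SE 0.045, 95% interval 0.047 to 0.24), with an unadjusted edgeR p of 0.0068 and an adjusted p of 0.22. Without TNF-α replicate 1, the adjusted p was 0.038 for Hspb1 and 0.013 for Hsp90aa1, and 930 genes were called in place of 81.

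The small heat shock protein list also holds Hspbap1, a gene for a protein that binds HSPB1. Among the 7 other genes tested of this list, Hspb7 rose and none fell at an adjusted p under 0.05. Of all genes tested, 0.408% were called higher and 0.204% lower. Hspb7, known from heart and skeletal muscle, where its protein binds the actin-crosslinking protein filamin C, had 95.8, 92.0 and 105 CPM in the TNF-α libraries and 126, 120.0 and 126 CPM in the TNF-α+NFL libraries. The groups were apart, with a log2 fold change of 0.34 (SE 0.051, 95% interval 0.23 to 0.45, edgeR adjusted p = 0.0083). That call was lost on log2(FPKM + 1) by limma (adjusted p = 0.095) and without TNF-α replicate 2 or any 1 of the TNF-α+NFL libraries (edgeR adjusted p from 0.055 to 0.096). Over all 16 alternatives the log2 fold change ran from 0.30 to 0.40. Cryab, αB-crystallin, which binds desmin and actin filaments, had 28.6, 30.5 and 30.4 CPM in the TNF-α libraries and 33.2, 37.0 and 39.5 CPM in the TNF-α+NFL libraries. Its groups were apart too, with a log2 fold change of 0.29 (SE 0.066, edgeR adjusted p = 0.075). Hspb8, a partner of BAG3 in clearing damaged proteins, had a log2 fold change of -0.078 (edgeR adjusted p = 0.54). The counts of Hspb7, Cryab and Hspb8 were whole in every library. The summed CPM of 5 markers of fibroblasts and dedifferentiated chondrocytes was 8977 to 9567 in the TNF-α libraries and 9833 to 10171 in the TNF-α+NFL libraries. Of these 5 markers only Acta2, whose counts were fractional, was called, against 0.611% of all genes tested. Acta2 rose by 0.28 on the log2 scale (edgeR adjusted p = 0.010). The groups were apart for 2 of the 5, Acta2 and Thy1, against 16.8% of all genes tested. Thy1 had a log2 fold change of 0.095 (edgeR adjusted p = 0.33). The groups overlapped for Col1a1 at 0.065, Col1a2 at 0.066 and Col3a1 at -0.017. The part of these markers in the values of Hspb1, Hspb7 and Cryab was not tested.

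Hspd1, the mitochondrial HSP60 that folds imported proteins in a closed chamber, had 191, 209 and 202 CPM in the TNF-α libraries and 209, 203 and 199.8 CPM in the TNF-α+NFL libraries. The groups overlapped, with a log2 fold change of 0.023 (SE 0.042, 95% interval -0.068 to 0.11, edgeR adjusted p = 0.91). Hspe1, which shares the element array shown above, had 34.8, 39.4 and 42.0 CPM in the TNF-α libraries and 37.2, 35.2 and 34.5 CPM in the TNF-α+NFL libraries. Its groups overlapped as well, with a log2 fold change of -0.12 (SE 0.068, edgeR adjusted p = 0.56). Of the 13 mitochondrial chaperone and protease genes tested other than Hspd1, Hspe1 among them, none was called by edgeR, against 0.611% of all genes tested. Values were below 0 for 11 of the 13, with a median of -0.072. Lonp1 and Clpp, which encode matrix proteases, had log2 fold changes of -0.076 and -0.12.

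The other chaperone genes gave 1 call in 100 tested, Hspb7, by edgeR, against 0.611% of all genes tested, and 7 of the 100 had an unadjusted p under 0.05, against 11.1% of all genes tested. Their CPM did not overlap between groups for 12 of the 100, against 16.8% of all genes tested. Log2 fold changes were above 0 for 42 and below 0 for 58 of them, with a median of -0.018, where 6385 of all genes tested were above 0 and 6865 below. By edgeR, no gene was called among the 23 J-proteins of the cytosol and nucleus that were tested, of which 17 had values above 0. The mitochondrial J-protein genes Dnaja3, Dnajc19, Dnajc15 and Hscb, counted with the mitochondrial genes above, had values from -0.054 to -0.15. Nor was any gene called among the 15 HSP90 co-chaperones, of which 12 had values below 0. None was called among the 15 genes of TRiC and prefoldin, the complexes that fold actin and tubulin, and their helper Pdcl3, of which 12 had values below 0. Dnajb4, an inducible J-protein, had a log2 fold change of 0.15 (SE 0.046, edgeR adjusted p = 0.21), with fractional counts. Dnajc27, a J-protein with a small GTPase domain, had 0.24 (edgeR adjusted p = 0.31), and the ribosome-bound Dnajc2 had 0.12 (edgeR adjusted p = 0.44). In the HSP70 family, Hspa12b had a log2 fold change of 0.32 (edgeR adjusted p = 0.32), the ER-associated Hspa13 had 0.11 and the HSP110 gene Hspa4 had 0.052.

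No gene that regulates HSP70 or HSP90 was called by edgeR, against 0.611% of all genes tested. Of 10 nucleotide exchange factors and HSP70 regulators, 7 had values below 0, with a median log2 fold change of -0.042. Bag3, an HSF1-induced exchange factor that links HSP70 to autophagy, had 143, 134 and 129 CPM in the TNF-α libraries and 121, 125 and 123 CPM in the TNF-α+NFL libraries. Each TNF-α+NFL library was below each TNF-α library in CPM, while in TPM the groups overlapped. The log2 fold change was -0.14 (SE 0.044, edgeR adjusted p = 0.23). The ubiquitin ligase gene Stub1 had a log2 fold change of -0.098, Bag4 had -0.15 and the kinase co-chaperone gene Cdc37 had -0.096. The HSP90 co-chaperones Ahsa2 and Fkbp5 had log2 fold changes of 0.19 and 0.089. The TRiC subunit genes Cct4 and Cct5 had -0.049 and -0.068, and Pdcl3, a phosducin-like helper of TRiC, had 0.049.

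Of 17 heat-inducible targets of HSF1 outside the 10, none was called by edgeR, against 0.611% of all genes tested. Values were above 0 for 7 of the 17 and below 0 for 10, with a median log2 fold change of -0.038. The CPM of the groups did not overlap for 5 of the 17, 1 higher and 4 lower in the TNF-α+NFL group, against 16.8% of all genes tested. Cryab, Bag3 and Hspb8 were those with the smallest p-values, Cryab above 0 and the others below. In TPM the groups overlapped for Bag3, and for the HSP90 co-chaperone genes Fkbp4 and Cacybp, both lower and apart in CPM. They were still apart in TPM for Cryab and Hspb8. Of 10396 genes tested that had a promoter sequence, 46 held the 3-unit element. None of them was called by edgeR, against 0.611% of all genes tested, and 22 of the 46 had values above 0 and 24 below. Their median log2 fold change was -0.0041, beside -0.0044 over all genes with a promoter sequence.

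**Figure D4:**
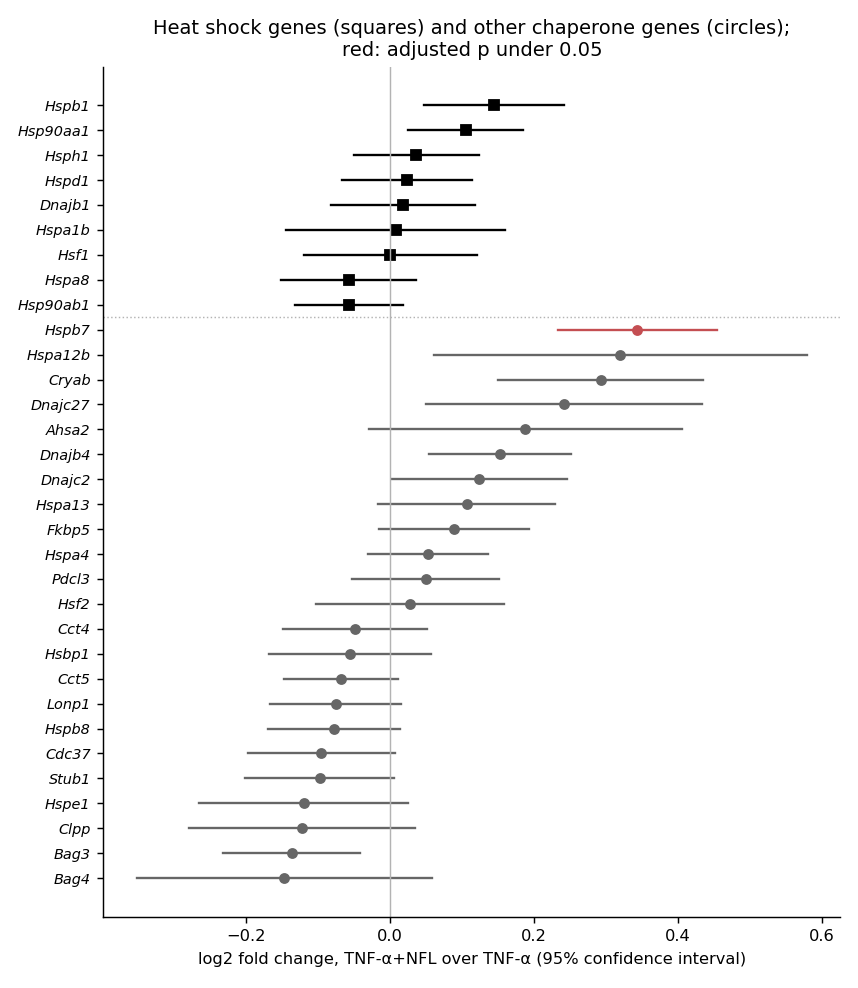
Log2 fold change of the TNF-α+NFL over the TNF-α group with its 95% confidence interval from edgeR, for 9 heat shock genes (squares) and for other chaperone genes named here (circles). Hspa1a and Hsbp1l1 are left out because their intervals are wider than the axis. Hspb7, in red, is the gene with an adjusted p under 0.05, and Hspb1 and Hsp90aa1 are the squares whose intervals lie above 0.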

How the data were processed

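RNA-seq of 6 libraries (3 per group) was analysed from a deposited table of 18420 genes. The authors deposited an estimated count for each gene and library, not normalized and often not whole, with FPKM values, scaled to transcript length and mapped reads, and TPM values, scaled to length and to a fixed sum. The submitters' processing notes name HISAT2 2.0.4, Bowtie2 2.2.5, RSEM 1.2.12 and Rnor_6.0. RSEM shares reads between similar transcripts, so near-identical copies carry fractional counts.

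Whole-number counts, made by rounding, entered edgeR 4.0.16 (R 4.3.3) with filterByExpr, TMM scaling and a robust quasi-likelihood fit. Tests were two-sided with p-values adjusted by Benjamini-Hochberg across 13250 genes, and the standard errors came from the F statistic. The biological coefficient of variation was 6.39%. CPM used the same scaling, and levels between genes were compared in TPM. Alternatives used DESeq2 1.42.0 and limma 3.58.1 (voom, and log2 of FPKM plus 1), other filters, and left out each library. The test was checked on simulated counts. RefSeq's GRCr8 gene table, used for names, held 17068 of the identifiers.

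The members and lists were chosen with earlier results of these data known. Named genes were the 10 members, the called genes and 3 smallest p-values of each chaperone list, the 5 genes most correlated with Dnajb1, and rows of copies. Same-numbered libraries of the 2 groups had correlations of their deviations of -0.011, -0.024 and 0.080, so the numbers did not pair them. Library pairs within a group differed by more than counting noise, with a variance of 8.90 and 13.7 times that noise for the pairs with TNF-α replicate 1, 4.98 for the other TNF-α pair and 2.70 to 3.05 for the TNF-α+NFL pairs, so no file was a copy of another.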

Additional observations from a re-analysis of the deposited data

How the results depend on the processing

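The number of genes called higher was 54, and it was 84 with no filter, 95 by the DESeq2 Wald test, 25 with the replicate number as a block and 3 by limma on log2(FPKM + 1). The number called lower was 27, and it was 48, 53, 9 and 3 under the same alternatives. Leaving out 1 library gave from 5 to 460 higher and from 0 to 470 lower, the fewest without TNF-α+NFL replicate 1 and the most without TNF-α replicate 1. No heat shock gene of the 10 was called under any alternative but that last one, which called 2 (leave-out range 0 to 2). Hspa1a had no value with at least 10 counts in every library or in the summed fits, and neither Hspa1a nor Hspa1b had an adjusted p by DESeq2. Other chaperone genes called numbered 2 with no filter and by DESeq2, both times Hspb7 and Cryab (adjusted p of Cryab 0.027 and 0.0499), 0 by limma on FPKM, and from 0 to 5 with 1 library left out. The cause was not tested.

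The replicate block, for numbers that did not pair the samples, changed no call of a heat shock gene or of Hspb7. Without TNF-α replicate 1, Hspe1 (adjusted p = 0.036), Hsbp1 (0.0496), Hspa12b (0.014) and Cryab (0.019) were also called by edgeR.

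Changes of sign were found for values close to 0 and for Hspa1a. The log2 fold change of Hsf1 was 0.0019 with at least 10 counts in every library, 0.00036 with DESeq2 size factors, 0.00035 by DESeq2 and 0.0024 by limma on FPKM, with a leave-out range of -0.038 to 0.031. That of Hspa1b was -0.027 summed with Hspa1a and -0.033 summed also with Hspa1l. Leave-out ranges were -0.032 to 0.068 for Hspa1b, -1.49 to 0.17 for Hspa1a, -0.0038 to 0.043 for Dnajb1, -0.0091 to 0.056 for Hspd1, -0.012 to 0.066 for Hsf2 and -0.089 to 0.00069 for Cct4. They were -0.088 to 0.020 for the summed CPM of Hspa1a and Hspa1b and -0.045 to 0.12 for the log2 ratio of that sum to Hspa8. Some values kept their sign but moved in size. With 1 library left out, the log2 fold change ran from -0.095 to -0.032 for Hspa8, 0.088 to 0.26 for Ahsa2 and -0.21 to -0.075 for Bag4. The median over the 10 heat shock genes ran from 0.00029 to 0.033. The sums and ratios with completing rows were chosen after seeing the data.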
